A study of Mus musculus with 8 samples.

Results

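Dendritic cells take up antigen and present it to T cells, and 10 genes that mark them or their subsets were followed in RNA-seq of the whole mouse aorta. They were Flt3, Zbtb46, Xcr1, Clec9a, Batf3, Irf8, Cd209a, Ccr7, Fscn1 and Siglech, chosen by symbol. They make up 10 of the 48607 loci of the table, of which 46921 carried a gene name, and where a symbol stood at several loci the one with the most counts was used. The study asked what loss of natriuretic peptide receptor C (NPRC, encoded by Npr3) does in atherosclerosis. All mice lacked ApoE, the apolipoprotein whose loss raises plasma lipoproteins and allows plaques to form, and all were fed a Western diet for 12 weeks before the entire aorta was taken. By title, 5 libraries came from ApoE-/- mice and 3 from ApoE-/-NPRC-/- mice, and per the design notes each is the aorta of a separate mouse. The NPRC-/- allele is a CRISPR frameshift in exon 1 of Npr3 on a C57BL/6 background, present in every cell of the body, and the controls were ApoE-/- littermates. The ApoE-/- mice that the study bought were 8-week-old males, and for the sequenced littermates neither age nor sex is given separately in the sources used here.

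The labels disagree for 4 of the 8 libraries. The libraries titled ApoE-/- 4 and 5 are entered as ApoE-/-NPRC-/- in the genotype field, and the pair titled ApoE-/-NPRC-/- 1 and 2 is entered there as ApoE-/-. Groups were therefore formed by title, with 5 against 3 libraries, and the tests of the genes and lists were repeated by genotype entry, again with 5 against 3. The level of Npr3 itself does not settle the labels. By title, it was between 0.62 and 1.69 FPKM in ApoE-/- and between 1.13 and 1.39 FPKM in ApoE-/-NPRC-/- aortas, and a frameshift need not lower the level of an RNA. FPKM is a fragment number corrected for transcript length and sequencing depth, and the total count was between 62969165 and 86693276 per library. In all 8 libraries the smooth muscle marker Acta2 was abundant, at 849 to 1982 FPKM.

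Conventional dendritic cells (cDC) arise from bone marrow precursors that need the receptor Flt3, and they divide into cDC1, which depend on the transcription factors Irf8 and Batf3 and cross-present antigen to CD8 T cells, and cDC2, which mainly prime CD4 T cells. On maturation both kinds switch on the chemokine receptor Ccr7 and the actin-bundling protein Fscn1 and migrate through lymph vessels to lymph nodes. Plasmacytoid dendritic cells (pDC) are a separate kind, specialised in type I interferon, and carry Siglech in the mouse. In the arterial wall, dendritic cells lie in the intima and adventitia, and they accumulate in plaques.

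Promoter sequences were read for 9 of the 10 genes, in 10 windows that run from 250 bases before to 50 bases after the annotated start (RefSeq, build GRCm38.p6), and Ccr7 has none. They were searched on both strands for GAGGAAGT, a PU.1 motif, AANNGAAA, a core of the motif bound by IRF factors, and TGANTCA, the AP-1 motif that Batf3 can bind with Jun partners. The windows of Flt3 (chr5:147400440-147400739, minus strand), Irf8 (chr8:120736108-120736407, plus strand), Cd209a (chr8:3748935-3749234, minus strand) and Zbtb46 (chr2:181424339-181424638, minus strand) are printed 5′ to 3′ in the direction of transcription. The first 3 belong to genes that were lower by title in the comparisons that follow and the last to one that was not, and matches are in capitals.
Flt3: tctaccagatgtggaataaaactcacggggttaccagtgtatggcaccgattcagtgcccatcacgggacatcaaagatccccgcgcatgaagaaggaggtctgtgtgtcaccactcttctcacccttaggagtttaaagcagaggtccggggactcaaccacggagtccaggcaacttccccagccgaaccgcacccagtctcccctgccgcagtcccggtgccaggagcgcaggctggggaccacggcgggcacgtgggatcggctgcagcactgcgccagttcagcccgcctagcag
Irf8: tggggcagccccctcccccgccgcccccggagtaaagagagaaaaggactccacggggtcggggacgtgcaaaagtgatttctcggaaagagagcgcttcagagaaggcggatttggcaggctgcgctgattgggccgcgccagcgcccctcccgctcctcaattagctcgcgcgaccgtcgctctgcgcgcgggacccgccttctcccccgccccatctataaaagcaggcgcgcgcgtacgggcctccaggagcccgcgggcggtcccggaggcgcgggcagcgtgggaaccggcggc
Cd209a: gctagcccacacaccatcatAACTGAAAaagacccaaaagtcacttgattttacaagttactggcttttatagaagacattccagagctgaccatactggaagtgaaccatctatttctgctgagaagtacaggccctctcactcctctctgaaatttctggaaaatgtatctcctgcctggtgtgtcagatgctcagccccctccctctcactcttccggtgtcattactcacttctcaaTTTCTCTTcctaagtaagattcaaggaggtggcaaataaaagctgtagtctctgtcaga
Zbtb46: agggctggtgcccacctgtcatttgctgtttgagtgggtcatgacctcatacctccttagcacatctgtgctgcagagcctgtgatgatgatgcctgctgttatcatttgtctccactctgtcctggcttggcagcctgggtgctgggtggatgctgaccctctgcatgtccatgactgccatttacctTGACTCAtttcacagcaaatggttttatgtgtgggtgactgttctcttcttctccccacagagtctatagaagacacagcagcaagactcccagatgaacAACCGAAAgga
Cd209a holds the IRF motif at 2 places, as AACTGAAA at position -230 and, on the opposite strand, as TTTCTCTT at position -9, where position 0 is the annotated start. Zbtb46 holds an IRF match at position 39 and an AP-1 match at position -61. Its window lies inside the gene, whose 5′ end is at 181459426 in GENCODE. The start used for Zbtb46 is therefore an internal one, and its matches are not those of the promoter at the 5′ end. No other window of the 10 holds any of the motifs, and PU.1 matched in 0. Among 32851 mouse promoter windows of the same length, 23.917% hold the IRF motif, 7.808% the AP-1 motif and 3.202% the PU.1 motif, so IRF matches in 2 of 9 genes are close to the share of all promoters.

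By title, dendritic cell genes were lower in ApoE-/-NPRC-/- aortas. A gene counted as changed when it met the criterion of the study, which asks for a change past 2-fold (a ratio over 2 or under 0.5) at an unadjusted p of less than 0.05, here by edgeR's quasi-likelihood fit over the 31983 loci with a mean of at least 10 counts. All 10 genes passed that filter on counts, 7 of them were changed and lower (Flt3, Xcr1, Batf3, Irf8, Cd209a, Ccr7 and Fscn1), and Zbtb46, Clec9a and Siglech were not changed. Over all loci tested, 3.74% were changed and lower and 1.67% changed and higher. The median log2 fold change of the 10 genes was -1.33, against -0.0096 over all loci. After Benjamini-Hochberg adjustment over all loci, 0 of the 10 genes had a p-value under 0.05, with adjusted values between 0.22 and 0.354 for the 7, and 7 were under 0.05 unadjusted. With DESeq2 the adjusted p-value was 0.0351 for Flt3, 0.000339 for Cd209a and 0.0116 for Irf8, and above 0.05 for the other members. Of the 31983 loci, 1030 had an adjusted p-value under 0.05 with DESeq2 and 0 with edgeR. The aorta was measured in bulk, where fewer cells of a type and less RNA per cell cannot be told apart.

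**Figure D1:**
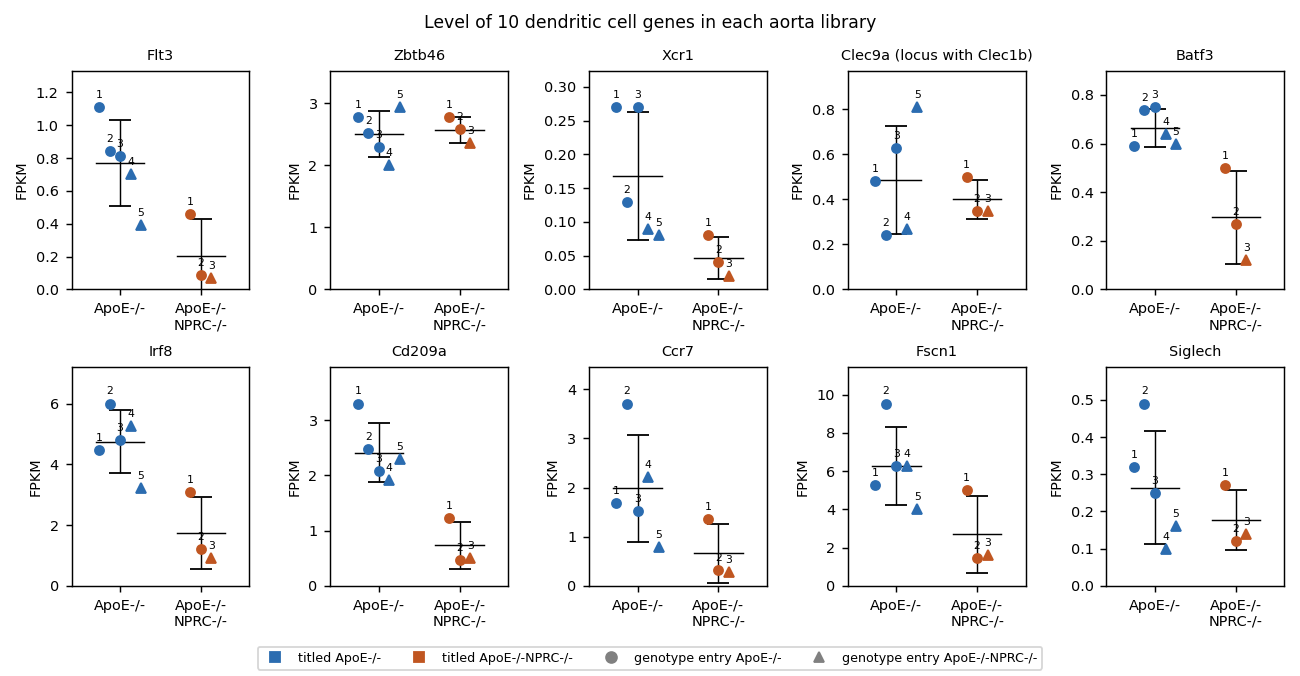
Level in FPKM (vertical axes, each from 0) of the 10 genes in each library, numbered as in the titles. Colour gives the title and shape the genotype entry, lines and bars are the mean and SD of the titled group. The libraries titled ApoE-/-NPRC-/- 2 and 3 are the lowest pair in 7 of the 10 genes.

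Flt3, the receptor that dendritic cell precursors need to develop, had the lowest fold change of the 10. Its locus lies on chromosome 5 from 147330741 to 147400489, minus strand, and the antisense gene Gm26597 overlaps its 5′ end on the opposite strand. Its level was 1.11, 0.84, 0.81, 0.70 and 0.39 FPKM in the libraries titled ApoE-/- 1 to 5. It was 0.46, 0.09 and 0.07 FPKM in ApoE-/-NPRC-/- 1 to 3. The groups overlapped through ApoE-/- 5, which lay below ApoE-/-NPRC-/- 1, while the other pair of ApoE-/-NPRC-/- libraries lay far below all others. The mean was 0.77 ± 0.26 FPKM (SD, n = 5) in ApoE-/- and 0.207 ± 0.22 FPKM (SD, n = 3) in ApoE-/-NPRC-/-, and the fold change was -1.90 on the log2 scale (standard error 0.64, Benjamini-Hochberg adjusted p = 0.315 by the quasi-likelihood test of edgeR), or 3.72-fold lower.

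Zbtb46, a transcription factor that marks the cDC lineage and is also made by endothelial cells, was not changed by title. Its level ranged from 2.00 to 2.94 FPKM in ApoE-/- and from 2.36 to 2.78 FPKM in ApoE-/-NPRC-/- libraries. The second range lies inside the first, and the fold change was 0.074 on the log2 scale (standard error 0.12, adjusted p = 0.822 by edgeR). Its locus is uncertain as a measure of the gene. It runs on chromosome 2 from 181369869 to 181459426, past the 3′ end of the GENCODE gene at 181387762. It therefore also covers Lime1, Slc2a4rg-ps and part of Zgpat, which lie on the other strand. Whether the counting used strand is not given in the sources used here, and 4 loci carry the symbol. The 7 genes of the endothelial list had a median log2 fold change of -0.084, and 0 of them were changed.

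Among the genes of cDC1, the chemokine receptor Xcr1 and the transcription factors Batf3 and Irf8 were lower, and the dead-cell receptor Clec9a was not. Xcr1 was 0.27, 0.13, 0.27, 0.09 and 0.08 FPKM in ApoE-/- 1 to 5 and 0.08, 0.04 and 0.02 FPKM in ApoE-/-NPRC-/- 1 to 3. The groups met at the lower ApoE-/- libraries, and its log2 fold change of -1.85 (standard error 0.65, adjusted p = 0.329 by edgeR) rests on 8 to 120 counts per library. It was the gene with the lowest level of the 10, and its depth limits what can be said of it.

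Batf3, which cooperates with Irf8 in the making of cDC1, was 0.59, 0.74, 0.75, 0.64 and 0.60 FPKM in ApoE-/- 1 to 5. In ApoE-/-NPRC-/- 1 to 3 it was 0.50, 0.27 and 0.12 FPKM. The groups did not overlap, the ApoE-/- libraries were close together, and the ApoE-/-NPRC-/- libraries were spread more widely. The log2 fold change of Batf3 was -1.15 (standard error 0.40, adjusted p = 0.329 by edgeR), with 22 to 121 counts per library. A two-sided exact permutation test of its log2 CPM (counts scaled to the size of the library) gave p = 0.0357, the smallest that 5 against 3 libraries allow.

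Irf8, a factor of cDC1 and pDC that monocytes, macrophages and B cells also make, was 4.47, 6.0, 4.79, 5.25 and 3.22 FPKM in ApoE-/- 1 to 5. It was 3.09, 1.2 and 0.92 FPKM in ApoE-/-NPRC-/- 1 to 3. In FPKM the groups did not overlap, but ApoE-/- 5 and ApoE-/-NPRC-/- 1 were almost level, and on the scale of log2 CPM they changed places. The log2 fold change of Irf8 was -1.45 (standard error 0.40, adjusted p = 0.265 by edgeR), from 722 to 4112 counts per library, and the exact permutation p was 0.0714. The long read-through annotation Gm20388 covers the locus on the same strand, and reads of both cannot be separated.

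Clec9a, through which cDC1 sense dead cells, was 0.24 to 0.81 FPKM in ApoE-/- and 0.35 to 0.50 FPKM in ApoE-/-NPRC-/- libraries. Unlike the other genes of cDC1, its highest and lowest values both lay among the ApoE-/- libraries, at ApoE-/- 5 and ApoE-/- 2. The log2 fold change of the shared locus was -0.26 (standard error 0.39, adjusted p = 0.807 by edgeR). Its locus also holds Clec1b, a gene of platelets and myeloid cells, and the value is that of both genes.

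Cd209a, a lectin of cDC2 and of dendritic cells that arise from monocytes, had the smallest p-value of the 10. Its level was 3.30, 2.48, 2.08, 1.91 and 2.29 FPKM in ApoE-/- 1 to 5. It was 1.23, 0.46 and 0.51 FPKM in ApoE-/-NPRC-/- 1 to 3. Every ApoE-/-NPRC-/- library lay below every ApoE-/- library, with the highest of the former well under the lowest of the latter. The mean was 2.41 ± 0.541 FPKM (SD, n = 5) in ApoE-/- and 0.733 ± 0.431 FPKM (SD, n = 3) in ApoE-/-NPRC-/-, a log2 fold change of -1.68 (standard error 0.35, adjusted p = 0.22 by edgeR) or 3.20-fold lower. The exact permutation p was 0.0357, as it must be where groups of this size do not overlap. In the same exact permutation test, p was 0.0714 for Flt3, Xcr1, Ccr7 and Fscn1. Cd209a and Batf3 were the 2 members whose groups did not overlap in log2 CPM, and among all loci 4.12% were lower without overlap.

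The genes of mature, migrating dendritic cells were lower too. Ccr7, the receptor that leads them to lymph vessels and that naive T and B cells carry as well, was 1.69, 3.71, 1.52, 2.22 and 0.80 FPKM in ApoE-/- 1 to 5 and 1.36, 0.33 and 0.29 FPKM in ApoE-/-NPRC-/- 1 to 3. Fscn1, which bundles actin in dendrites and is also present in other cells of the wall, was 5.26, 9.54, 6.27, 6.27 and 4.04 FPKM in ApoE-/- 1 to 5 and 5.00, 1.45 and 1.63 FPKM in ApoE-/-NPRC-/- 1 to 3. In both genes ApoE-/- 2 was the highest library, ApoE-/-NPRC-/- 1 lay above ApoE-/- 5, and the groups overlapped through that pair. On the log2 scale the fold change was -1.58 (standard error 0.63, adjusted p = 0.354 by edgeR) for Ccr7 and -1.21 (standard error 0.45, adjusted p = 0.338) for Fscn1. Without the library titled ApoE-/- 2 neither met the criterion, at -1.25 and -1.03, and Ccr7 (-1.51) did not without ApoE-/- 4.

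Siglech, the lectin of pDC, was 0.32, 0.49, 0.25, 0.10 and 0.16 FPKM in ApoE-/- 1 to 5 and 0.27, 0.12 and 0.14 FPKM in ApoE-/-NPRC-/- 1 to 3. The lowest value was that of ApoE-/- 4, and the ApoE-/-NPRC-/- libraries lay inside the range of the others. The log2 fold change of Siglech was -0.56 (standard error 0.52, adjusted p = 0.671 by edgeR).

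The result depended on the label. By genotype entry, 1 of the 10 genes was changed and lower (Siglech) and 0 were higher, where 0.463% of all loci were changed and lower and 0.754% changed and higher. The median log2 fold change of the 10 was -0.38, against -0.004 over all loci. Siglech, with 0.32, 0.49, 0.25, 0.27 and 0.12 FPKM in the aortas entered as ApoE-/- (titled ApoE-/- 1 to 3 and ApoE-/-NPRC-/- 1 and 2), had 0.10, 0.16 and 0.14 FPKM in the others. Its groups still overlapped, and the log2 difference came to -1.10 (standard error 0.43, adjusted p = 0.99995 by edgeR). Cd209a was -0.27 (standard error 0.62) and Irf8 -0.29 (standard error 0.59) by entry, and no member was lower without overlap. In Cd209a the libraries entered as ApoE-/- spanned 0.46 to 3.30 FPKM, because ApoE-/-NPRC-/- 2 falls among them.

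**Figure D2:**
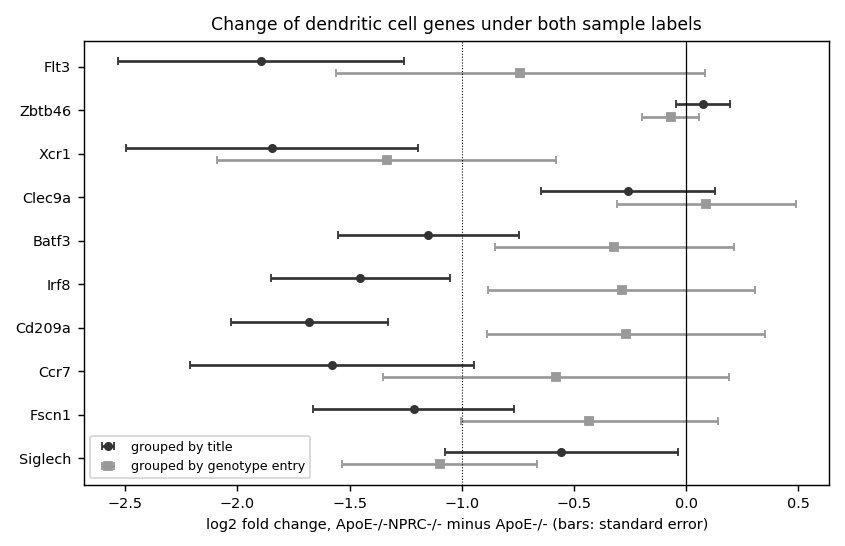
Log2 fold change (horizontal axis, ApoE-/-NPRC-/- minus ApoE-/-) with its standard error for each gene, grouped by title (black) and by genotype entry (grey), with a dotted line at a fall by 2-fold. By title 7 genes lie left of -1, from -1.90 for Flt3 to -1.15 for Batf3, and by entry Xcr1 (-1.34) and Siglech (-1.10) do.

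Libraries of one titled group also differed among themselves. In all 10 genes, the library titled ApoE-/-NPRC-/- 1 was above both ApoE-/-NPRC-/- 2 and 3. The sum of the 10 levels was 15.27 FPKM in ApoE-/-NPRC-/- 1, 6.90 in ApoE-/-NPRC-/- 2 and 6.41 in ApoE-/-NPRC-/- 3, and 15.33 to 26.69 FPKM in the libraries titled ApoE-/-. The sum thus put ApoE-/-NPRC-/- 1 level with ApoE-/- 5. Without ApoE-/-NPRC-/- 2 or 3, 2 (Irf8 and Cd209a) or 3 (Flt3 as well) of the 10 genes met the criterion, where 2.06% or 2.62% of all loci were changed and lower. Without ApoE-/-NPRC-/- 1 the median log2 fold change was -2.06 and 7 genes met it, against 6.6% of all loci. In the 4 libraries whose labels match, 3 against 1, 7 of the 10 met it in the same edgeR fit, with a median of -2.30, where 6.08% of all loci were changed and lower and the lone ApoE-/-NPRC-/- library is assumed to vary like the others. That comparison was added after seeing the data.

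Other genes of the dendritic cell programme were read from 7 lists. Not all are particular to these cells, as Csf1r is also in the macrophage and monocyte list. The locus read for Flt3l also carries the name Rpl13a. The lists hold 76 loci tested besides the 10 genes. By title 28 were changed and lower, 0 changed and higher and 67 had a negative fold change, with a median of -0.94, where 3.74% of all loci were changed and lower. By edgeR 42 had an unadjusted p under 0.05 and the smallest adjusted p was 0.191. By genotype entry 0 were lower and 1 was higher (Cd8a, named after its values were seen), with a median of -0.25. The count by title fell to 13 without ApoE-/-NPRC-/- 2 and 16 without ApoE-/-NPRC-/- 3, and rose to 43 without ApoE-/-NPRC-/- 1.

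All 8 genes of the MHC class II list were lower by title, the most complete of the lists. Cd74, the invariant chain that guides class II molecules, was at 127 to 241 FPKM in ApoE-/- and at 29.56 to 85.08 FPKM in ApoE-/-NPRC-/- libraries, with a log2 fold change of -1.87 (standard error 0.40). The class II chain genes H2-Aa and H2-Eb1 had log2 fold changes of -1.94 (standard error 0.54) and -1.90 (standard error 0.52). Ciita, the coactivator that switches these genes on, was -1.34 (standard error 0.37). The groups of Cd74, H2-Eb1 and Ciita did not overlap in log2 CPM, while those of H2-Aa did. They were the 3 of the 8 genes lower without overlap, where 4.12% of all loci were. Macrophages and B cells also carry class II.

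Of the cDC2 list 5 of 10 loci were changed and lower, with a median of -1.23. They included Sirpa (-1.47, standard error 0.40), an inhibitory receptor that macrophages and smooth muscle also carry, and the lectin Clec12a (-1.27, standard error 0.45). Fcer1a, a chain of the IgE receptor, and Cd7 were also lower but at levels of at most 1.02 FPKM. The call of Fcer1a ended in 9 of 19 alternatives and turned direction by genotype entry, and that of Cd7 ended in 6 of 20. Of the cDC1 list 4 of 11 were lower, namely Itgae, the integrin CD103 (-1.78, standard error 0.44), Wdfy4, which cross-presentation needs (-1.22, standard error 0.37), the peptide transporter Tap1 (-1.03, standard error 0.33, with its call ended in 6 of 20 alternatives) and Gcsam. Gcsam was at 0.09 to 0.32 FPKM in ApoE-/- and at 0.00 to 0.04 FPKM in ApoE-/-NPRC-/- libraries.

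Of the 18 genes of the mature migratory list 6 were changed and lower, with a median of -1.0. Marcks, a substrate of protein kinase C that many cells of the wall make, had the smallest p-value of all the dendritic cell lists, with 16.07 to 21.48 FPKM in ApoE-/- and 7.53 to 10.36 FPKM in ApoE-/-NPRC-/- libraries and a log2 fold change of -1.01 (standard error 0.15, adjusted p = 0.191 by edgeR). The chemokine Ccl17, which mature dendritic cells secrete to draw T cells, had a log2 fold change of -2.57 (standard error 0.58). Its level was 0.41 to 1.42 against 0.05 to 0.22 FPKM, from only 3 to 72 counts per library. The dendritic cell maturation marker Cd83 was -1.45 (standard error 0.52) and the costimulatory receptor Cd40 was -1.12 (standard error 0.39). Being close to 2-fold, Marcks lost its call in 7 of 20 alternatives, with -0.94 without ApoE-/-NPRC-/- 3, and Cd40 lost its own in 6 of 19. None of the 3 genes for ligands of Ccr7 or their scavenger was changed. The scavenger Ackr4 had a log2 fold change of 0.67 (standard error 0.29), with the opposite sign to Ccr7.

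Of the pDC list 3 of 14 genes were changed and lower, with a median of -0.89. They were the DNA sensor Tlr9 (-1.48, standard error 0.32), Lag3, an inhibitory receptor that T cells carry too (-1.23, standard error 0.30) and Irf7, the factor behind interferon (-1.37, standard error 0.37), which other leukocytes share. In none of the 3, named for their small p-values by title, did the groups overlap in log2 CPM. That held for 4 of the 14 genes, where 4.12% of all loci were lower without overlap. Of the 12 genes for development and growth factors 2 were lower, namely Spi1, which encodes PU.1 (-1.13, standard error 0.40), and Csf2rb, the shared chain of the GM-CSF receptor (-1.03, standard error 0.36). Their calls ended in 6 and 7 of 20 alternatives, among them those without ApoE-/- 3, ApoE-/- 4, ApoE-/-NPRC-/- 2 or ApoE-/-NPRC-/- 3.

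**Figure D3:**
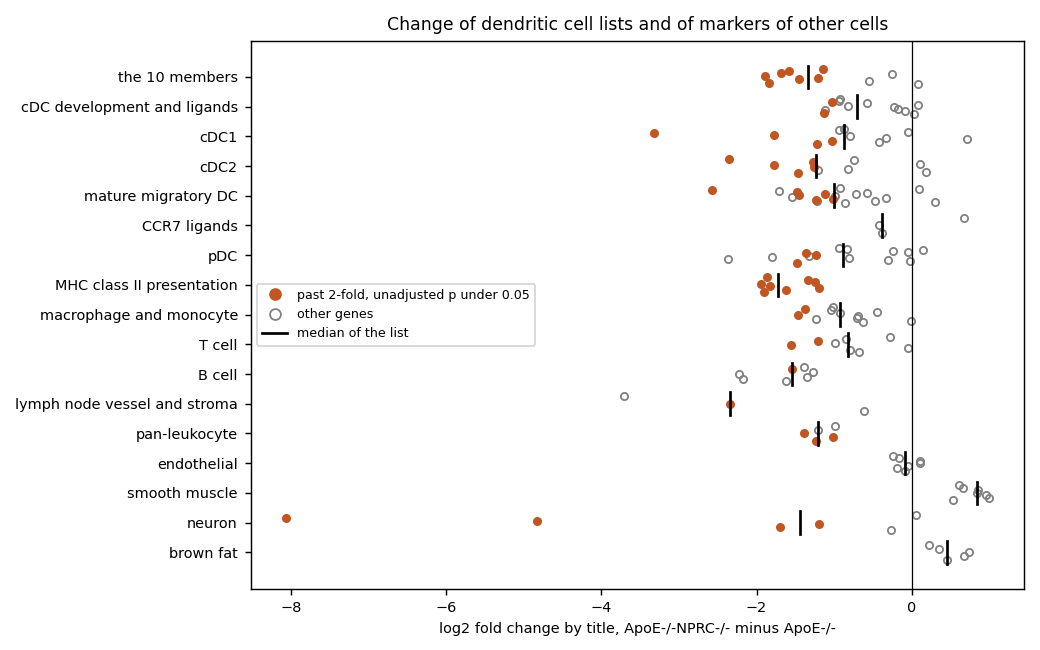
Log2 fold change by title (horizontal axis) of each gene in the lists of dendritic cell genes and of markers of other cells, with filled points for changed genes and a bar at the median. The median is -1.33 for the 10 genes, -1.21 for pan-leukocyte genes, -0.084 for endothelial and 0.84 for smooth muscle genes, and the point farthest left is Elavl4, a neuron gene listed at 0 in all 3 ApoE-/-NPRC-/- libraries, so that its fold is no measured size.

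By title, markers of other leukocytes moved with the dendritic cell genes. All 5 pan-leukocyte genes had a negative fold change by title, 3 of 5 changed, and their summed level was 65.38 to 146.9 FPKM in ApoE-/- and 32.14 to 88.82 FPKM in ApoE-/-NPRC-/- libraries. Of the 11 macrophage and monocyte genes all were negative and 2 were changed, with sums of 615 to 1842 and 304 to 975 FPKM. Of the 8 T cell genes 2 were changed and lower, with sums of 4.2 to 9.04 and 2.34 to 4.75 FPKM. The 7 smooth muscle genes went the other way, with a median of 0.84, 7 of 7 under an unadjusted p of 0.05 by edgeR and 0 past the 2-fold bound. Of the 6 neuron genes 4 were changed and lower, and of the 5 brown fat genes 0 were changed. By genotype entry 0 genes of these 6 lists were changed, with medians of -0.31 for pan-leukocyte, -0.16 for macrophage and monocyte, and 0.12 for smooth muscle genes. The T cell genes then had the opposite direction, 7 of 8 positive with a median of 0.27. The part of these cells in the result was not tested.

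The library titled ApoE-/- 2, highest for Irf8, Ccr7, Fscn1 and Siglech, was also highest in the summed level of B cell genes. The 7 of them summed to 24.78 FPKM there, to 2.95 to 7.61 FPKM in the other ApoE-/- libraries and to 1.52 to 5.18 FPKM in ApoE-/-NPRC-/- libraries, and Ms4a1 was listed at 0 in ApoE-/-NPRC-/- 2. Of these 7 genes 1 was changed and lower by title and 2 by genotype entry. The 4 genes of lymph node vessels and stroma were also highest in it, at 4.41 FPKM in sum against 0.33 to 1.9 FPKM elsewhere, with Madcam1 listed at 0 in 6 libraries and Chst4 in 5. Without this library 5 of the 10 genes met the criterion, against 3.17% of all loci, and the median log2 fold change was -1.19. The part of B cells in the levels of Irf8 and Ccr7 was not tested.

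Set against the 5 pan-leukocyte genes, the differences of the 7 changed members were smaller. The log2 CPM of each gene minus the mean log2 CPM of Ptprc, Coro1a, Cd52, Cd53 and Laptm5 was compared in each library, as a description with no test. That mean was itself lower by title, at 5.35 to 6.74 in ApoE-/- and 4.45 to 5.92 in ApoE-/-NPRC-/- libraries. Subtracting it raises the difference of every gene between the titled groups by the same amount. Smaller falls, and positive values for genes that had not changed, follow from that shift. Flt3 was -3.77 ± 0.47 (SD, n = 5) in ApoE-/- and -4.81 ± 0.60 (SD, n = 3) in ApoE-/-NPRC-/- libraries. On this scale it was the one gene of the 10 whose groups did not overlap, although they did overlap in its level. The gap was narrow, with -4.11 in ApoE-/- 4 and -4.15 in ApoE-/-NPRC-/- 1. The share of all loci without overlap on this scale was not computed. The groups of Cd209a and Batf3, apart in log2 CPM, overlapped here. Cd209a differed by -0.52, Xcr1 by -0.50, Ccr7 by -0.47 and Irf8 by -0.34, each with overlap. The smallest differences were those of Batf3 (-0.013) and Fscn1 (-0.11), also with overlap. Zbtb46 (1.34), Clec9a (1.12) and Siglech (0.82), the members that were not changed by title, were higher relative to them, again with overlap. By genotype entry the groups overlapped in all 10 genes, with differences between -0.79 for Xcr1 and 0.47 for Clec9a and one of -0.46 for Flt3.

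**Figure D4:**
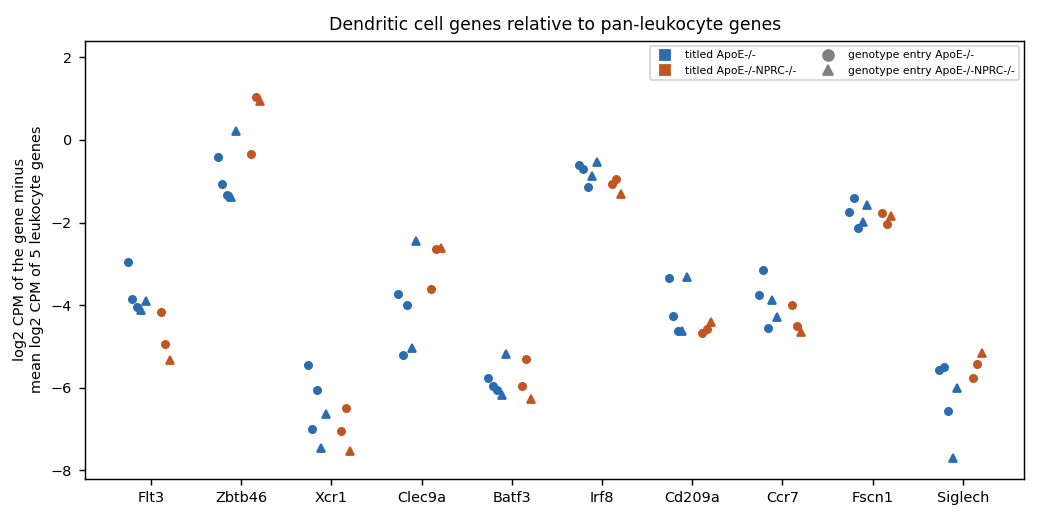
Log2 CPM of each gene minus the mean log2 CPM of 5 pan-leukocyte genes (vertical axis), with 1 point per library, coloured by title and shaped by genotype entry. For Flt3 the 3 ApoE-/-NPRC-/- libraries lie below all 5 ApoE-/- libraries, with a mean difference of -1.03. The gap is narrow, with ApoE-/- 4 at -4.11 and ApoE-/-NPRC-/- 1 at -4.15. For the other genes the groups overlap.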

How the data were processed

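Poly(A) RNA of whole aortas was sequenced in 8 libraries. The authors trimmed reads (cutadapt 1.9, with FastQC, and build GRCm38 per the submitters' processing notes), used HISAT2 to map them and StringTie to assemble transcripts. The authors deposited unnormalized counts per assembled locus and FPKM values scaled to transcript length and mapped fragments. How the counts were made, and with which strand setting, is not given in the sources used here. The table had 0 columns of samples outside this series.

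The 10 genes and all lists were chosen with earlier results of these data known. Counts of 31983 loci (mean of at least 10) were tested in R 4.3.3 with edgeR 4.0.16 (TMM, quasi-likelihood, Benjamini-Hochberg over all loci), which was checked on simulated data. The biological coefficient of variation was 0.435, and total counts were 62969165 to 86693276. CPM used a prior count of 2. Named list genes met the criterion by title, up to 4 per list by smallest p, or the smallest p where none did. Of the loci, 1710 carry several gene names. Figures used matplotlib 3.10.9. Alternatives covered the label, filter, scaling, DESeq2 1.42.0, limma 3.58.1 on log2(FPKM + 1) or log2(FPKM + 0.1), summed loci, the replicate block and each library left out.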

Additional observations from a re-analysis of the deposited data

Results flagged for a closer look

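Among the 54 groups of 5 libraries examined for a single distant library (each member and the mean log2 CPM of each list, by title and by entry), 1 stood out, where chance would give about 2.7, since about 1 group in 20 is picked out by chance. The mean log2 CPM of the brown fat genes was 4.48 in the library titled ApoE-/- 3 and 5.97 to 6.39 in the other 4 libraries entered as ApoE-/-. None of the 10 dendritic cell genes was picked out, and neither were the B cell genes, highest in ApoE-/- 2.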

How the results depend on the processing

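Grouped by genotype entry, 1 of the 10 members and 1 of 76 other list genes were changed and the median log2 fold change was -0.38, while 2 members, Zbtb46 (-0.069) and Clec9a (0.090), and 11 of the 76 turned direction, among them Fcer1a (0.28) and Ackr4 (-0.40). With the filter at 1 FPKM in 3 libraries, 4 of the 5 members tested were changed by title and 0 by entry. Of the 20506 loci then tested, 712 were changed by title and 95 by entry. With limma on log2(FPKM + 1), which shrinks low levels, 2 members were changed by title, 0 by entry and 11 other list genes, with a median of -0.46. Fewer loci of the whole table were changed with it too, at 188 of 31983 by title and 26 by entry. The main edgeR fit had 1730 and 389. In the libraries with matching labels, added after seeing the data, 44 other list genes were changed, the median was -2.30 and Zbtb46 was -0.013. Leaving out each library in turn gave 2 to 7 members by title, 0 to 2 by entry, 13 to 43 other list genes and a median between -2.06 and -1.07. Over all 31983 loci these omissions gave 1057 to 3086 changed by title and 332 to 695 by entry. By entry and over the same omissions, Zbtb46 ran from -0.15 to 0.024 (without ApoE-/- 4), Clec9a from -0.42 (without ApoE-/- 5) to 0.34, Cd209a from -0.55 to 0.14, Batf3 from -0.71 to 0.11 and Irf8 from -0.97 to 0.14, the last 3 highest without ApoE-/-NPRC-/- 3. The cause was not tested.

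Deviations of same-numbered libraries correlated at -0.23, -0.08 and 0.02. With so few libraries per group, and titles in conflict with the genotype entry, these values cannot decide whether the libraries are paired. The labels give them only a shared number. With the replicate block, 6 members and 31 other list genes were changed and the median was -1.65, against 7, 34 and -1.46 in the same 6 libraries without it. With the other alternatives (no filter, filterByExpr, median-ratio scaling, DESeq2, the smaller pseudocount and summed loci), the counts by title stayed within 1.5 times. Over all loci tested, these gave from 1190 of 31983 changed (the smaller pseudocount) to 2287 of 44689 (no filter). Depth limits Xcr1, Batf3 and Siglech, which had as few as 8, 22 and 31 counts in a library. It also limits the list genes Ccl17 (3 to 72 counts), Gcsam (0 to 108), Fcer1a (8 to 57) and Cd7 (0 to 115).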
